A study of Mus musculus with 2 samples.

Results

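Ly49-positive natural killer (NK) cells were described in single-cell RNA sequencing of adipose tissue leukocytes. They were chosen as the cells of the authors' deposited cluster 1 with at least 1 unique molecular identifier (UMI, 1 captured transcript molecule) of Klra4, Klra8 or Klra9 in sum. The rule took 1233 of 10159 cells, 468 from the chow library and 765 from the ketogenic library. The study used wild-type (wt) C57BL/6 mice, adult per the sample titles, with no other allele or agent named, kept for 1 week on chow (the control) or on a ketogenic diet, a diet low in carbohydrate. The cells of both groups were CD45+ leukocytes of adipose tissue, restricted to tissue-resident cells by intravenous labelling, which marks leukocytes inside vessels. Each diet is 1 library, the number of mice behind a library is not given in the sources used here, and no difference below has a replicate check. No test between diets was therefore made. Square brackets hold 95% intervals for counting error alone, exact Poisson for UMI sums, exact binomial (Clopper-Pearson) for shares and exact conditional for ratios and odds ratios.

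NK cells are innate lymphocytes that kill stressed or transformed cells with granzymes and perforin. Mouse NK cells carry Ly49 receptors, encoded by the Klra genes, which bind class I major histocompatibility molecules. Most of them inhibit the cell through an immunoreceptor tyrosine-based motif in their tail, while Ly49D (Klra4) and Ly49H (Klra8) pair with the adaptor DAP12 (Tyrobp) and activate it. Single NK cells express differing sets of these genes, a pattern known as variegated expression. Group 1 innate lymphoid cells (ILC1), the tissue-resident relatives of NK cells, share many genes with NK cells but carry few Ly49 receptors and more Cxcr6 and Cd200r1.

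The Ly49 genes lie in a cluster on chromosome 6, these 3 on the minus strand. In GENCODE M21 (GRCm38), Klra4 (ENSMUSG00000079852) runs from 130043731 to 130067271, Klra8 (ENSMUSG00000089727) from 130115226 to 130129898 and Klra9 (ENSMUSG00000033024) from 130178675 to 130193112. Because the members are defined by these 3 genes, the 120 bases before their start sites are shown, with those of Klra3, a Ly49 gene that the rule did not use and whose transcript shares much sequence with Klra9. The sequences are those of RefSeq on GRCm38.p6, written 5′ to 3′ on the gene's strand, and span chr6:130067272-130067391, chr6:130129899-130130018, chr6:130193113-130193232 and chr6:130337627-130337746 in that order. Capitals mark AAGCAATTTCCTCTTTT and AGGAGGGGCAGAAA, the 2 longest runs that these stretches of all 3 rule genes share.
Klra4: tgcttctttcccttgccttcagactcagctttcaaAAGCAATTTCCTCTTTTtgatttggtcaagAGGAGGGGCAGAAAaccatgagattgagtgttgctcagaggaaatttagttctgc
Klra8: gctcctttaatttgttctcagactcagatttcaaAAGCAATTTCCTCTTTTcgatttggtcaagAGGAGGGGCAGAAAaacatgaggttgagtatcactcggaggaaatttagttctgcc
Klra9: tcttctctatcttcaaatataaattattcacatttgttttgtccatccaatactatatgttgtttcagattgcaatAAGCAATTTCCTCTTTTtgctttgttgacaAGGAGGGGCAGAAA
Klra3: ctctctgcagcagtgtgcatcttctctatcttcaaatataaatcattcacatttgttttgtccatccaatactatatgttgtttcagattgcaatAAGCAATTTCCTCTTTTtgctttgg

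The stretches of Klra4 and Klra8 were alike at 86.0% of aligned positions, against 42.0% for either gene with Klra9. Those of Klra9 and Klra3 were alike at 71.9%. In windows of 300 bases (250 before to 50 after each start), searched on both strands, AAGCAATTTCCTCTTTT occurred in 7 of 13 Ly49 promoters (6 of 11 genes) and in 8 of all 32851 promoters (0.0244%). AGGAGGGGCAGAAA occurred in 8 of the 13 (7 of 11 genes) and in 9 of all promoters (0.0274%). A match describes the letters only.

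The transcripts of these genes resemble each other as well, which limits how well UMIs can be assigned. Of the 451 windows of 50 bases in the last 500 bases of each transcript, 4.66% of those of Klra4 and 13.1% of those of Klra8 also occurred in another Ly49 gene. For the transcripts of Klra9 the share was 44.8% and 53.9%, most often with Klra3 and Klra10, so the Klra9 values are the least certain of the 3. How reads that match several genes were counted is not given in the sources used here.

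All 5 markers named for these cells were detected in both libraries. Gzma, the gene of granzyme A, a killer-cell protease, was found in 74.8% of chow and 75.4% of ketogenic members, at 3881 [3767–3998] and 3231 [3162–3301] UMIs per 1000000 UMIs (CPM). Klre1, a killer lectin receptor, was found in 78.4% and 83.3%, at 689 [641–739] and 636 [606–668] CPM. Klra9 was found in 76.3% and 79.1% of members, Klra8 in 48.1% and 56.3%, and Klra4 in 35.3% and 37.3%. These shares depend on depth, since the median member held 2251.5 UMIs under chow and 3098 on the ketogenic diet. With every cell thinned to 1000 UMIs, Gzma was found in 68.3% and 66.7% of members, Klre1 in 49.6% and 46.0%, and Klra8 in 36.0% and 40.2%. In cluster 6, a cluster with the dendritic cell receptor Clec9a at 149 and 128 CPM and median depths of 7906 and 9922 UMIs, the thinned shares were 3.26% and 2.92% for Gzma, 1.80% and 1.82% for Klre1, and 0.76% and 0.87% for Klra8. The Gzma and Klre1 shares in members were thus above those in a cell type expected to lack these genes, while the Klra8 share in members is high by the rule.

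Other NK genes were present as well. Ncr1, the activating receptor NKp46, stood at 547 [504–592] and 779 [745–814] CPM in members against 11.5 and 12.1 in cluster 6. Klrb1c, the NK1.1 antigen, stood at 499 and 598 CPM against 4.92 and 7.47. Transcripts of the T cell receptor complex were present. Its receptor chain genes Trbc1 and Trbc2 had 1852 and 1444 UMIs over the members of both libraries, where Klrb1c had 2095. Transcripts of its Cd3 chains were lower, with 97 UMIs of Cd3e, 254 of Cd3d and 469 of Cd3g. A UMI of Cd3e, Cd3d or Cd3g was found in 81 of 468 chow members (17.3%) and 198 of 765 ketogenic members (25.9%), and at 1000 UMIs Cd3g was found in 6.47% and 7.55% of members, against 1.34% and 3.34% of cluster 6. The T cell markers Cd4 (3 and 3 UMIs) and Cd8a (2 and 19 UMIs) were close to 0. Of the 12 T cell markers 1 was at 0 in chow members (Cd5) and none in ketogenic members, and their summed level was 1088 and 1357 CPM. T cells among the members were not called apart. The macrophage marker Csf1r (11 and 3 UMIs), the dendritic marker Clec9a (3 and 5) and the B cell marker Ms4a1 (2 and 10) were also near 0. The lists these genes come from were not at 0 as a whole. The macrophage and monocyte list summed to 1826 CPM in chow and 825 in ketogenic members, the dendritic cell list to 3146 and 1368, and the B cell list to 1974 and 1692. Most of the B cell sum was immunoglobulin, with Igkc at 1448 and 1164 CPM and Ighm at 513 and 506. The part of these cell types, or of their free RNA, in the results was not tested.

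The members were 10.5% [9.61–11.4] of the 4458 clustered chow cells and 13.8% [12.9–14.7] of the 5559 clustered ketogenic cells. The ratio of the shares was 1.31 [1.17–1.47], and 1.32 [1.16–1.51] after thinning. Ly49-negative cells of the same cluster, those with no UMI of the 3 genes, were 5.74% [5.08–6.47] and 5.34% [4.77–5.97] of clustered cells, a ratio of 0.930 [0.785–1.10]. Within cluster 1 the members were 64.6% [61.0–68.1] of 724 cells under chow and 72.03% [69.2–74.7] of 1062 on the ketogenic diet, an odds ratio of 1.41 [1.14–1.73] and a ratio of shares of 1.11 [0.992–1.25]. Thinning left that odds ratio at 1.30 [1.07–1.58] and the ratio of shares at 1.13 [0.988–1.28]. Both ratios of shares within the cluster have intervals that include 1, while both odds ratios have intervals above 1. The intervals of the ratios of shares treat the cell counts as Poisson, which is wider than binomial error for shares this large. The lowest UMI total in the ketogenic library was 2048, and 155 chow members (33.1%) lay below it, against 12.8% of all clustered chow cells. With that minimum applied to both libraries the ratio of the shares was 1.71, so its size depends on that minimum.

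Cells outside cluster 1 carried these receptors at lower shares. In the thinned data 51.8% and 58.3% of cluster 1 cells had a UMI of the 3 genes. Cluster 4 followed with 15.7% and 18.2%, cluster 7 with 7.28% and 7.05%, and cluster 10 with 2.74% and 8.04%. Every other cluster lay between 0.693% and 4.16%. Before thinning, the share was 28.6% and 34.4% in cluster 4 and 10.6% and 26.6% in cluster 10, and the cells of clusters 0 and 2 had shares of 3.98% and 3.81% under chow and 5.34% and 6.70% on the ketogenic diet. The libraries shared 41 cell barcodes, among them those of 4 chow and 6 ketogenic members. None of these barcodes was a member in both libraries.

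**Figure D1:**
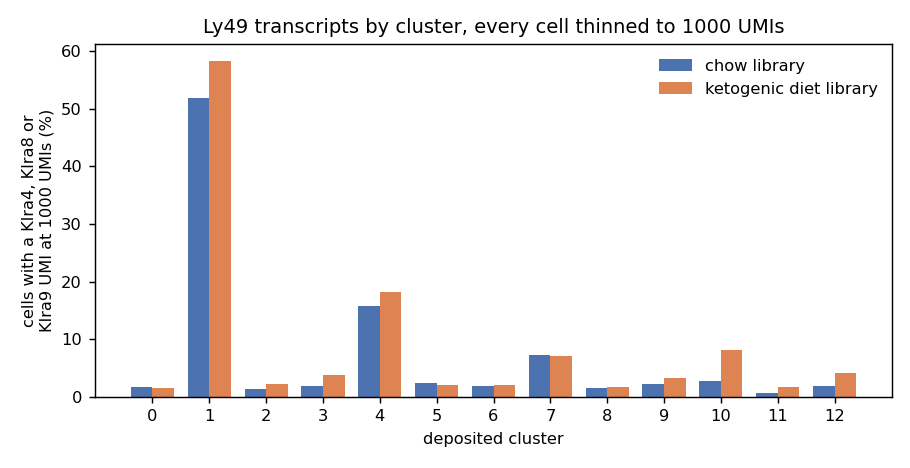
Share of cells with at least 1 UMI of Klra4, Klra8 or Klra9 in each deposited cluster (bars, in percent, with every cell thinned to 1000 UMIs), chow library in blue and ketogenic library in orange. Cluster 1 stands at 51.8% and 58.3%, and cluster 4 is next at 15.7% and 18.2%.

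The rule draws its line at 1 UMI. Just inside it lay 83 chow and 83 ketogenic cells with exactly 1 UMI of the 3 genes, and just outside 256 and 297 cells with none. Cells with 8 or more such UMIs were 13.8% of cluster 1 under chow and 31.0% on the ketogenic diet, at median depths of 2398 and 3179 UMIs. Since these genes set the bins, the following levels are a description with no test.

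Gzma was higher in every step from 0 to 8 or more Ly49 UMIs. Under chow it stood at 909 CPM in cells with none, 2722 with 1, 3275 with 2 to 3, 3936 with 4 to 7 and 5430 with 8 or more. Under the ketogenic diet the same steps stood at 677, 1460, 2035, 3115 and 4131 CPM. Irf8, a transcription factor of NK and myeloid cells, went from 221 to 691 CPM under chow and from 285 to 606 on the ketogenic diet between the first and the last step. Eomes, the T-box factor that marks conventional NK cells, went from 32.7 [20.5–49.5] to 154 [110–209] and from 48.5 [36.0–64.0] to 186 [162–213] CPM. Tbx21, which encodes T-bet and is shared by NK cells and ILC1, had no such gradient, with 149 and 115 CPM under chow and 144 and 114 on the ketogenic diet at both ends.

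Several genes ran the other way. Tmem176b, an ion channel gene of ILC1 and myeloid cells, stood at 587 CPM with no Ly49 UMI and 69.1 with 8 or more under chow, and at 579 and 79.4 on the ketogenic diet. Ltb, the gene of lymphotoxin beta, went from 288 to 88.3 and from 416 to 173 CPM. Cxcr6, a chemokine receptor of tissue-resident lymphocytes, went from 77.2 [57.7–101] to 11.5 [2.38–33.7] and from 131 to 34.5 CPM. Ly6c2, a surface protein of many lymphocytes and monocytes, went from 2563 to 1198 and from 2615 to 1295 CPM. Cells with exactly 1 UMI were thus between the neighbouring steps for Gzma in both libraries, but close to cells with none for Ly6c2, at 2853 and 2535 CPM, the chow value being the highest of its 5 steps.

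**Figure D2:**
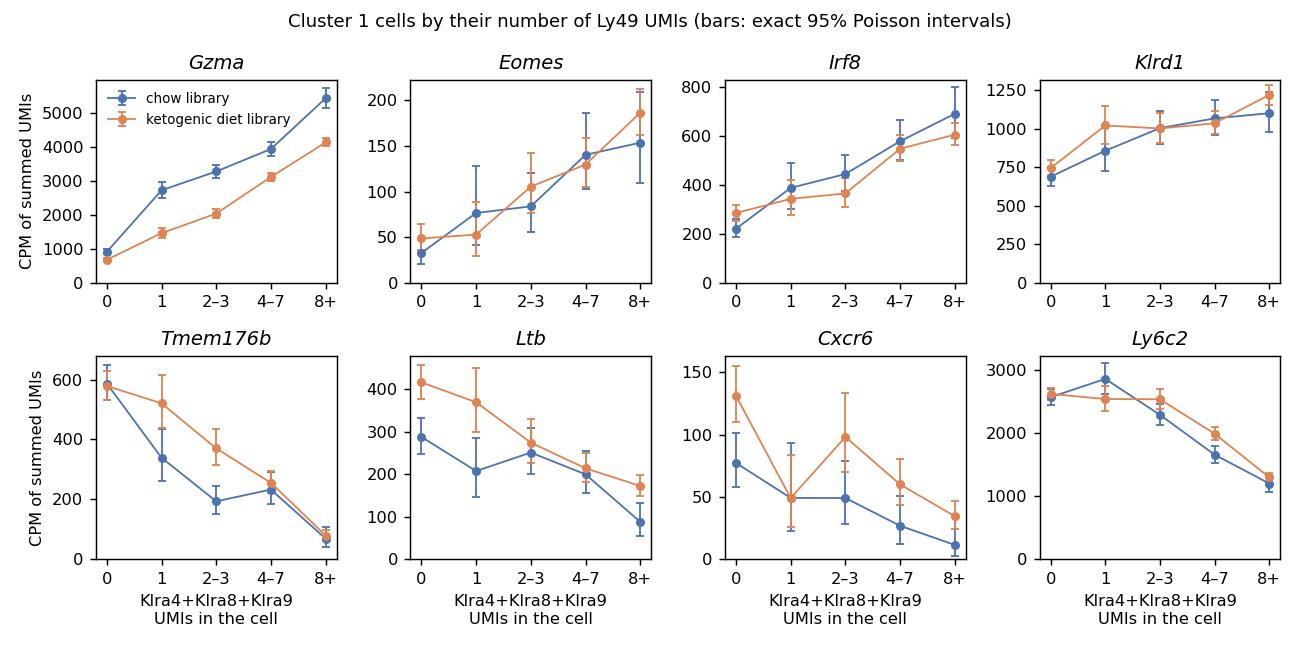
CPM of summed UMIs for 8 genes in cluster 1 cells grouped by their sum of Klra4, Klra8 and Klra9 UMIs (x axis), chow library in blue and ketogenic library in orange, with exact 95% Poisson intervals. Gzma, Eomes, Irf8 and Klrd1 end higher than they start in both libraries, and Tmem176b, Ltb, Cxcr6 and Ly6c2 end lower.

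Members differed in which of the 3 receptors they carried. Klra9 alone was found in 181 chow members (38.7% [34.2–43.3]) and 246 ketogenic members (32.2% [28.9–35.6]). All 3 genes were found in 61 (13.03%) and 136 (17.8%), Klra8 with Klra9 in 80 (17.1%) and 171 (22.4%), and Klra4 alone in 27 (5.77%) and 36 (4.71%). The activating pair Klra4 and Klra8 occurred together in 14.2% of chow cluster 1 cells, against 7.08% for the product of their single shares, and in 18.5% against 10.9% on the ketogenic diet. For Klra4 with Klra9 the observed share and the product were closer, at 13.3% against 11.2% and 17.7% against 15.3%. For Klra8 with Klra9 they were 19.5% against 15.3% and 28.9% against 23.1%. These products are over all cluster 1 cells, of which 256 under chow and 297 on the ketogenic diet had none of the 3 genes. Cells without any of the 3 can raise the observed share above the product for every pair. The comparison was not made within the members. Neither the part of such cells nor that of depth in these shares was tested.

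Cells with Klra9 alone stood apart from the other members. Gzma stood at 2374 [2230–2524] CPM there under chow, while the other 6 combinations lay between 4266 and 5311. Under the ketogenic diet it stood at 1629 CPM against 2878 to 5091. Cma1, a mast cell protease gene that mature NK cells also express, stood at 27.9 and 26.8 CPM in these cells, against 103 to 227 and 77.9 to 205 in the others. Irf8 (355 and 318 CPM) and Eomes (69.7 and 73.1) were also lowest there.

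Other genes were highest with Klra9 alone. Tmem176b stood at 358 and 462 CPM in these cells, against 36.3 to 169 and 33.5 to 195 in the other combinations. Klrc1, the inhibitory receptor chain NKG2A, stood at 393 [336–456] and 599 [548–655] CPM, against 106 to 285 and 207 to 482 elsewhere. Klra7, a Ly49 gene outside the rule, was lowest in these cells, at 413 and 323 CPM against 592 to 1098 and 685 to 1154. Klre1 stood at 664 CPM in Klra9-only cells under chow, within the 501 to 835 of the rest, and at 560 on the ketogenic diet, just below the 565 to 729 of the rest. Of the 3 rule genes Klra9 has the least certain counts, as given above.

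**Figure D3:**
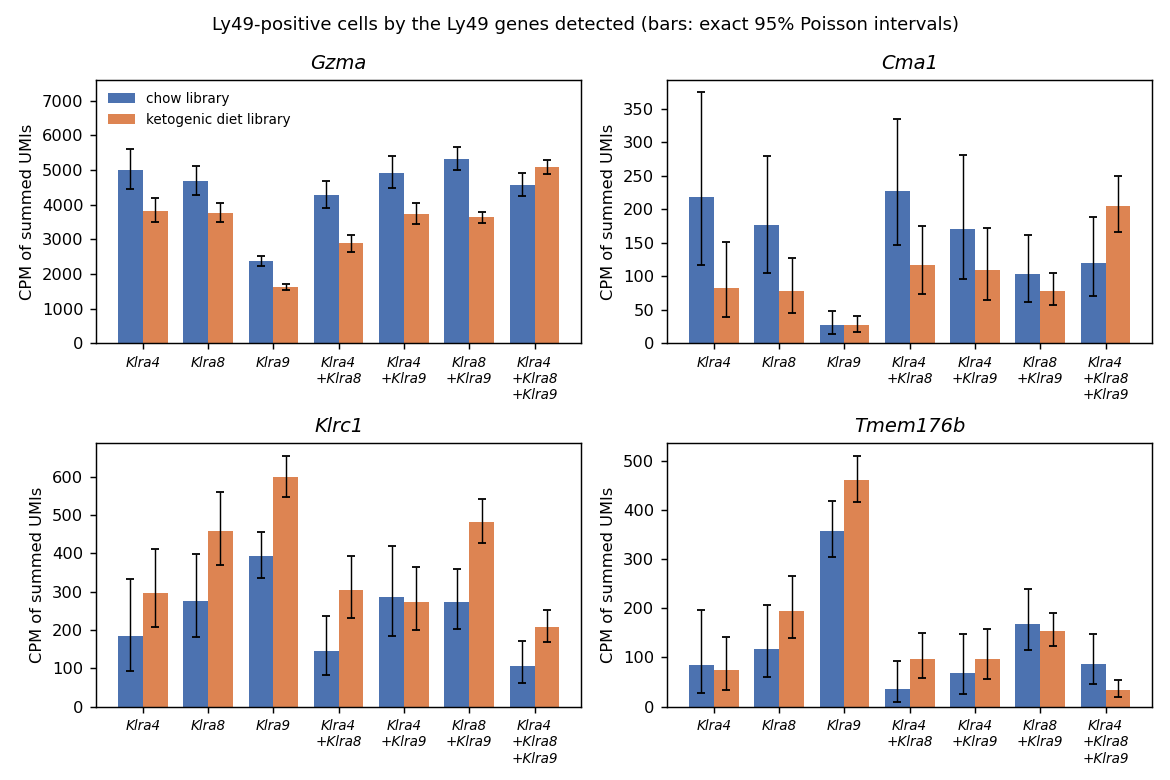
CPM of summed UMIs of Gzma, Cma1, Klrc1 and Tmem176b in members grouped by which of Klra4, Klra8 and Klra9 were detected (x axis), chow library in blue and ketogenic library in orange, with exact 95% Poisson intervals. Klra9-only cells have the lowest Gzma and Cma1 bars and the highest Klrc1 and Tmem176b bars in both libraries.

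Members were then set against the Ly49-negative cells of their own cluster. This split follows the 3 rule genes, and the cluster was built on the same transcriptomes, so it too is given with no test. Among genes with at least 50 UMIs in a library, other than the 3, those at least 1.5-fold higher in members were 199 of 3874 under chow (5.14%) and 297 of 5923 on the ketogenic diet (5.01%). Those at least 1.5-fold lower were 164 (4.23%) and 234 (3.95%). Among 3853 genes with enough UMIs in both libraries, 45 (1.17%) were higher in both, 41 (1.06%) lower in both, and 2 (0.0519%) past 1.5-fold in opposite directions. Genes are named by rule as the 10 highest and the 10 lowest by the mean log2 ratio of both libraries.

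Cytotoxic and NK receptor genes led the higher side. Gzma (chromosome 13 from 113093825 to 113100981, minus strand) stood at 3881 CPM in members and 909 in Ly49-negative cells under chow, a ratio of 4.27 [3.92–4.66], and at 3231 and 677 CPM on the ketogenic diet, a ratio of 4.78 [4.42–5.17]. Cma1 had ratios of 3.27 [2.06–5.41] and 5.82 [3.51–10.4]. Eomes had ratios of 3.54 [2.24–5.84] and 2.96 [2.20–4.06]. Among Ly49 genes outside the rule, Klra7 had ratios of 4.35 [3.51–5.43] and 3.56 [3.07–4.14], Klra3 2.64 and 2.66, and Klra1 2.49 and 3.35. Reads shared within the family can carry part of these Ly49 differences. Klri2, another killer lectin gene, had ratios of 2.87 and 2.29. Itgam, the maturation marker CD11b, had 2.16 and 2.77.

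By the mean log2 ratio of both libraries, the order used by the naming rule, Khdc1a came first (ENSMUSG00000067750, chromosome 1 from 21349641 to 21352200, plus strand), a KH-domain gene. It stood at 138 [117–161] CPM in members and 14.9 [7.12–27.3] in Ly49-negative cells under chow, and at 99.8 [88.0–113] and 20.4 [12.6–31.2] on the ketogenic diet, ratios of 9.28 [4.91–19.7] and 4.90 [3.14–8.05]. On the ketogenic diet alone the ratio of Cma1, given above, was higher. Its relative Khdc1c, which has too few chow UMIs for the naming rule and was singled out after its values were seen, had 79 UMIs in members and 2 in Ly49-negative cells under chow, a ratio of 23.7 [6.33–199]. Under the ketogenic diet it had 136 and 1, a ratio of 54.6 [9.64–2173]. Both belong to the Khdc1 family, and how reads shared between relatives were counted is not given in the sources used here.

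On the lower side stood genes of ILC1 and of antigen-presenting cells. Gpr183, an oxysterol receptor that guides lymphocyte positioning, stood at 24.0 CPM in members and 141 in Ly49-negative cells under chow, a ratio of 0.170 [0.107–0.263], and at 37.0 and 145 on the ketogenic diet, a ratio of 0.256 [0.196–0.333]. Tmem176b had ratios of 0.341 and 0.383, and its neighbour Tmem176a, whose annotated interval overlaps that of Tmem176b on the opposite strand, 0.408 and 0.349. Klrb1b, an inhibitory lectin receptor, had 0.488 and 0.451. Ckb, a creatine kinase, had 0.5003 and 0.375, and Socs2, a cytokine signalling inhibitor, 0.536 and 0.489.

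Lyz2, Cd74, Cst3 and Apoe completed the 10 lowest, and a few Ly49-negative cells carried much of their UMIs. In the chow library, 1 Ly49-negative cell of 16664 UMIs held 557 Cd74, 269 Lyz2 and 325 Cst3 UMIs and none of Ncr1, Klrb1c, Klre1 or Nkg7. Without it and the matching ketogenic cell, which had 426 Cd74 UMIs, the log2 ratio of Cd74 stood at −0.45 under chow and −0.76 on the ketogenic diet, against −0.99 and −1.28 with them. The chow log2 ratio of Lyz2 stood at −0.65 without it, against −1.15. In the ketogenic library, 1 Ly49-negative cell whose barcode also occurs in the chow library held 124 of the 204 Lyz2 UMIs and 35 of the 55 Apoe UMIs. Without cells with shared barcodes the ketogenic log2 ratios of Lyz2 and Apoe were 0.04 and 0.10, against −1.25 and −1.26. The differences of Cd74, Lyz2 and Apoe thus moved with single cells in at least 1 library. For Cst3, 1 Ly49-negative cell with a shared barcode held 248 of 710 ketogenic UMIs, and no ratio without it is given. With 10% of each sum subtracted in the proportions of its library, as a stand-in for free RNA, Lyz2, Cd74 and Apoe kept under 3 UMIs in members of both libraries. Cst3 did so in the ketogenic library. No ratio is given for these cases.

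**Figure D4:**
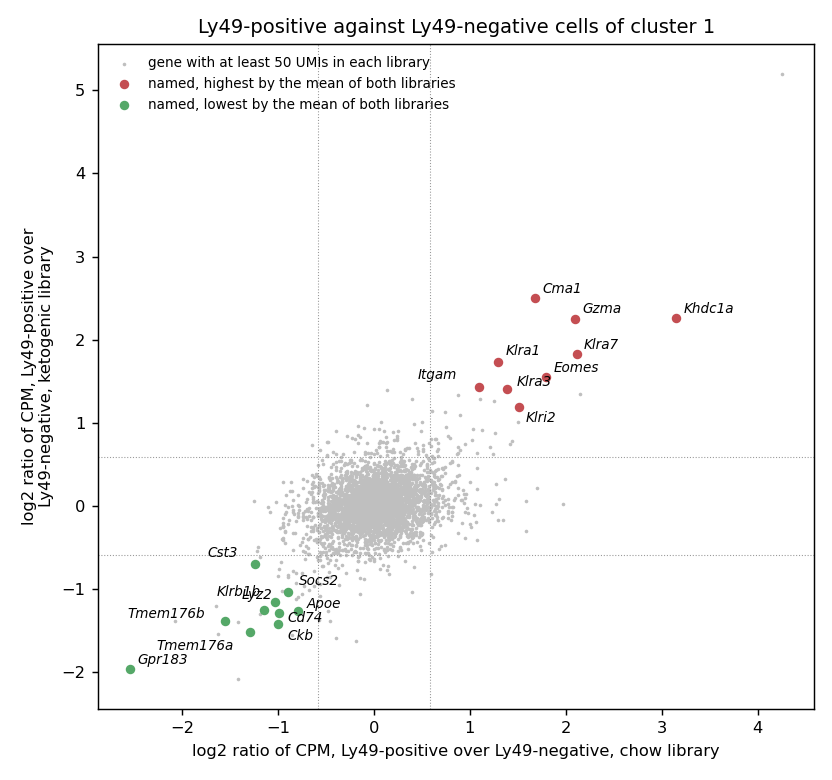
Log2 ratio of CPM between Ly49-positive and Ly49-negative cells of cluster 1, chow library on the x axis and ketogenic library on the y axis, for genes with at least 50 UMIs in each library (grey) and the named genes with the highest (red) and lowest (green) mean of both. Dotted lines mark 1.5-fold, and the unlabelled point at the upper right is Khdc1c (4.25 and 5.19).

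By lists, the members leaned to conventional NK genes. Of 11 conventional NK markers with enough UMIs, 7 were at least 1.5-fold higher under chow and 8 on the ketogenic diet, with median log2 ratios of 1.09 and 1.28 (0.01 and 0.00 over all genes tested). Of the ILC1 markers, 7 of 9 were lower under chow and 10 of 10 on the ketogenic diet, with medians of −1.19 and −1.28. These markers include genes already used above and were chosen with results of these data in view. Of the late NK maturation genes 5 of 11 and 6 of 12 were higher and 2 lower in each library, with medians of 0.40 and 0.62. The 2 lower genes were S100a4 and Itgb7. Of the cytotoxic granule genes, 5 of 15 and 6 of 20 were higher, among them Cst7, a cystatin of lytic granules (log2 ratios of 1.44 and 0.78). None was lower under chow and 2 on the ketogenic diet, Gzmc, a granzyme, at a ratio of 0.302 [0.213–0.427] and Tnfsf10, the death ligand TRAIL, at 0.627 [0.370–1.08]. Among receptor adaptors, Sh2d1a, the adaptor SAP, had ratios of 2.41 and 2.41 and Tyrobp 1.55 and 1.49. Tyrobp pairs with the activating receptors encoded by Klra4 and Klra8.

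The next comparison was between diets within the members, whose UMIs summed to 1124633 under chow and 2564464 on the ketogenic diet. Of 6002 genes with at least 50 UMIs, 485 (8.08%) were at least 1.5-fold higher and 440 (7.33%) at least 1.5-fold lower on the ketogenic diet, with a median log2 ratio of 0.03. In Ly49-negative cells 326 of 3724 (8.75%) were higher and 243 (6.53%) lower. Over the gene lists used here, 23 of 244 genes (9.43%) were higher in members and 15 (6.15%) lower, shares close to those of all genes.

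The levels of Klra4, Klra8 and Klra9 in members depend on the rule, which sets a minimum for their sum in each cell. Over all cluster 1 cells the 3 genes summed to 1302 CPM under chow and 1713 on the ketogenic diet. In members the log2 ratio, ketogenic over chow, was 0.26 for Klra8 and 0.26 for Klra4, 0.12 for Klra9, −0.26 for Gzma and −0.12 for Klre1. Of 8 Ly49 genes measured 1 passed 1.5-fold. This was Klra1, which encodes an inhibitory receptor, at 92.5 [75.6–112] CPM under chow and 143 [129–159] on the ketogenic diet, a ratio of 1.55 [1.24–1.94]. Gzmb had a ratio of 1.19 [1.08–1.31], perforin (Prf1) 1.19 [0.877–1.63] and interferon gamma (Ifng) 1.20 [0.961–1.496]. For Prf1 and Ifng no difference was detectable at this depth. Of 20 cytotoxic granule genes 1 was higher, against 8.08% of all genes tested in members. This was Stx11, a syntaxin needed for granule release, at 1.82 [1.09–3.19] from 19 and 79 UMIs.

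Several other NK receptors were higher in members of the ketogenic library. Of 11 killer lectin receptors outside the Ly49 family 3 were higher. Klrb1f stood at 80.9 CPM under chow and 142 on the ketogenic diet, a ratio of 1.75 [1.39–2.23], Klrb1a at a ratio of 1.62 [1.28–2.06] and Klrc1 at 1.54 [1.35–1.75]. In the other direction Klrg1, an inhibitory receptor of mature NK cells, stood at 90.7 and 55.4 CPM, a ratio of 0.611 [0.470–0.795]. Of 11 further activating and inhibitory receptors 3 were higher and none lower. Cd96, a receptor for nectin-like ligands, had a ratio of 2.23 [1.45–3.53] from 26 and 132 UMIs, Cd160 1.99 [1.53–2.61] and Slamf7 1.56 [1.11–2.24]. Ncr1 had a ratio of 1.42 [1.30–1.56] and did not reach 1.5-fold. T cell markers moved the same way, with 7 of 7 tested above 0, 2 past 1.5-fold (Cd3e at 1.69 [1.02–2.92] and Trac at 1.65 [1.13–2.47]) and a median log2 ratio of 0.40. Without cells with a Cd3e, Cd3d or Cd3g UMI, the log2 ratio was 1.42 for Cd96, 0.90 for Cd160, 0.96 for Klrb1f, 0.63 for Klrb1a and 0.69 for Klrc1, all still past 1.5-fold, while Slamf7 at 0.50 and Klra1 at 0.55 were not.

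The Ly49-negative cells differed in the same direction for most of these. Their log2 ratios were 0.98 for Cd160, 0.97 for Cd96, 0.64 for Klrb1a, 0.45 for Klrc1, 0.51 for Ncr1, 0.28 for Klrb1f, 0.23 for Slamf7 and −0.34 for Klrg1. Whether the members and these cells differ in their response was not tested.

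Late maturation genes leaned lower on the ketogenic diet. Of 13 late NK maturation genes 3 were lower and none higher, with a median log2 ratio of −0.24. Of all genes tested in members, 7.33% were lower, with a median of 0.03. Zeb2, a repressor needed for terminal NK maturation, stood at 72.9 CPM under chow and 41.3 on the ketogenic diet, a ratio of 0.567 [0.421–0.766]. Itgam stood at 96.0 and 48.4 CPM, a ratio of 0.504 [0.386–0.658], and Klrg1 was the third. Some genes of other lists, named for their ratios and not part of the late maturation list, were lower too. Cd44, an adhesion receptor of activated lymphocytes, had a ratio of 0.570 [0.482–0.675] and Itgal, the LFA-1 integrin chain, 0.575 [0.509–0.650]. Tgfbr2, a receptor chain for transforming growth factor beta, had 0.573 [0.407–0.811]. Over the 23 cytokine receptor and JAK-STAT genes, Tgfbr2 among them, the median log2 ratio was −0.10. Cd44 was the 1 lower gene of 8 retention and residency genes, of which 2 were higher, with a median log2 ratio of 0.15. Of 10 early maturation genes none was lower, with a median of 0.18, and 2 were higher, Cd7 at 1.66 [1.49–1.86] and Cxcr3, a chemokine receptor, at 1.54 [1.28–1.87].

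Outside the members the median log2 ratios of the late maturation list were −0.03 over 9 genes in Ly49-negative cells, 0.08 over 11 in cluster 0 and 0.17 over 9 in cluster 2. These medians cover fewer genes than the 13 in members, since genes with too few UMIs drop out. Itgam, the lowest of the 13 in members, enters none of them, with 30 chow and 18 ketogenic UMIs in Ly49-negative cells. The medians are thus over unlike gene sets, and whether the members differ from the other cells was not tested. Several of the genes named above were lower there as well. In Ly49-negative cells the log2 ratio was −1.71 for Zeb2, −1.48 for Cd44 and −0.65 for Itgal. In clusters 0 and 2 it was −1.06 and −1.001 for Zeb2, −0.98 and −0.83 for Cd44, −0.72 and −0.96 for Itgal and −0.83 and −0.52 for Tgfbr2. Itgam stood at −2.76 and −2.33 there, from 31 and 9 chow UMIs and 8 and 8 ketogenic UMIs. Klrg1 went the other way in these clusters, at 0.08 and 0.66. Zeb2 and Itgam stood at 476 and 219 CPM in chow cluster 3, a cluster with Lyz2 at 19255 CPM in the same library, and the part of RNA from such cells in the result was not tested.

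Genes of glycolysis, which turns glucose into pyruvate, leaned to the ketogenic library. Of 14 measured in members 5 were at least 1.5-fold higher, none was lower, and the median log2 ratio was 0.52. Pkm, which encodes pyruvate kinase, stood at 195 CPM under chow and 350 on the ketogenic diet, a ratio of 1.80 [1.55–2.09]. Aldoa (aldolase) had a ratio of 1.74 [1.51–2.01], Gpi1 (glucose phosphate isomerase) 1.67 [1.38–2.04], Slc2a1 (the glucose transporter GLUT1) 1.63 [1.03–2.67] and Tpi1 (triose phosphate isomerase) 1.53 [1.21–1.96]. Gapdh followed at 1.43 [1.29–1.58].

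The same lean was present outside the members. The median over glycolysis genes was 0.47 in Ly49-negative cells, with 2 of 12 higher. It was 0.54 in cluster 0, with 7 of 16 higher against 8.94% of all genes tested there, and 0.32 in cluster 2, with 5 of 15 higher against 14.3%. Pkm stood at 0.90 and 0.68 on the log2 scale in these clusters and Aldoa at 0.71 and 0.86.

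Fatty acid genes showed no common direction. Of 11 measured, 2 were lower and none higher, with a median log2 ratio of 0.15. Cpt1a, the gate of fatty acids into mitochondria, stood at 42.7 [31.5–56.6] CPM under chow and 14.0 [9.83–19.4] on the ketogenic diet, from 48 and 36 UMIs, a ratio of 0.329 [0.207–0.517]. Plin2, a lipid droplet coat protein, had a ratio of 0.414 [0.305–0.563]. Both were also lower in Ly49-negative cells (−2.16 and −0.74 on the log2 scale) and in clusters 0 (−0.89 and −0.85) and 2 (−1.15 and −1.15). Of the ketone body genes with at least 50 UMIs none passed 1.5-fold, and Oxct1 and Acat1 stood at log2 ratios of −0.04 and 0.14.

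**Figure D5:**
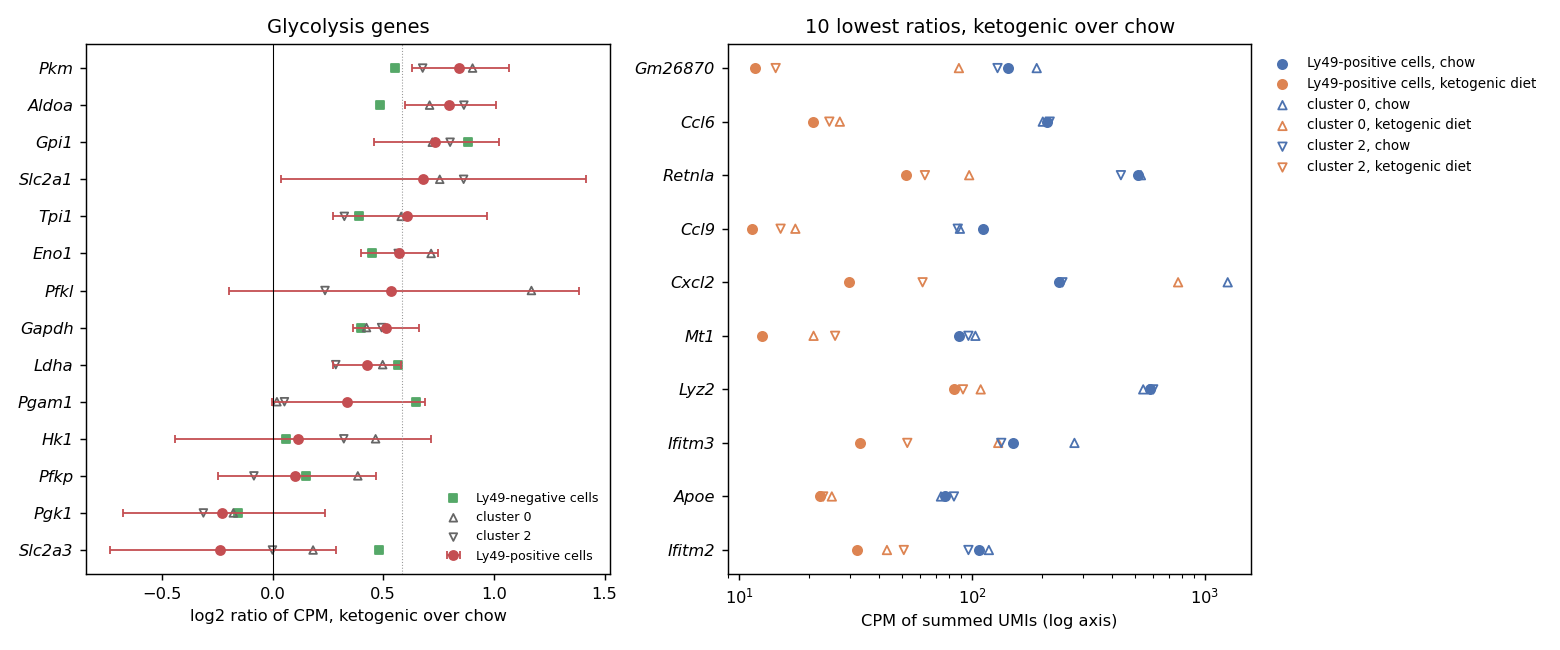
Left, log2 ratio of CPM between the ketogenic and the chow library for glycolysis genes in members (red, with exact 95% intervals), Ly49-negative cells (green, where at least 50 UMIs were present) and clusters 0 and 2 (open triangles), with the dotted line at 1.5-fold. Right, CPM on a log axis of the 10 genes with the lowest ratios, in members (filled) and in clusters 0 and 2 (open), by library; for 8 of the 10, Cxcl2 and Ifitm3 aside, the chow values of both clusters lie within 1.5-fold of the members.

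By the naming rule, the 10 highest ratios between diets in members, among 3943 genes with at least 100 UMIs, were led by Hspa1a, an inducible heat shock protein gene. It had 7 UMIs under chow and 141 on the ketogenic diet, 6.22 [2.50–12.8] and 54.98 [46.3–64.8] CPM, and 15.6% of the ketogenic UMIs came from 1 cell. With 10% of each sum subtracted in the proportions of its whole library, as a stand-in for free RNA, none of the 7 chow UMIs was left and no ratio is given for it. Its log2 ratio was 3.05 in members, 1.84 in Ly49-negative cells, 0.40 in cluster 0 and 1.62 in cluster 2. Abcg1, a cholesterol exporter, had a ratio of 3.19 [1.85–5.89], and Oxa1l, which inserts proteins into the inner mitochondrial membrane, 2.68 [1.60–4.78]. Gm11713, an antisense transcript, had 3.03 [1.99–4.82], uncertain because no source used here says whether counting was strand-specific. Chst12, Mtfr1l, Tceb3, Hvcn1, Mylip and Zfp263 completed the 10 with ratios from 2.26 to 2.30. The log2 ratios of all 10 were also above 0 outside the members. In Ly49-negative cells they ran from 0.20 for Tceb3 to 1.84 for Hspa1a, in part from under 50 UMIs. Over all clustered cells, members included, they ran from 0.22 for Zfp263 to 2.18 for Gm11713. Without cells with a Cd3e, Cd3d or Cd3g UMI, 4 of these 10 genes remained among the 10 highest.

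The 10 lowest ratios were Gm26870, Ccl6, Retnla, Ccl9, Cxcl2, Mt1, Lyz2, Ifitm3, Apoe and Ifitm2. Retnla, a secreted product of alternatively activated macrophages, stood at 517 [475–560] CPM in chow members and 51.9 [43.4–61.5] in ketogenic members, a log2 ratio of −3.31. Lyz2, the myeloid lysozyme, stood at 579 [535–625] and 83.4 [72.6–95.4] CPM, a log2 ratio of −2.79. Several of these are abundant in macrophages. In the same libraries Retnla stood at 531 and 97.3 CPM in cluster 0 and at 436 and 62.8 in cluster 2, and Lyz2 at 544 and 109 and at 600 and 91.5. Under chow the levels of both genes in the members were thus close to those in clusters 0 and 2, and on the ketogenic diet they were below both, with counting intervals that overlapped those of cluster 2. Cluster 3 held Lyz2 at 19255 and 21403 CPM. With the same subtraction for free RNA, 8 of these 10 genes, among them Lyz2 and Apoe, kept under 3 UMIs in ketogenic members, and no ratio is given for them. Retnla kept a log2 ratio of −2.95 and Gm26870 one of −3.83. The part of such RNA in these results was otherwise not tested. Gm26870, a long noncoding RNA, stood at 143 and 11.7 CPM in members.

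Few immediate early genes passed 1.5-fold, in both directions. Of 22 measured, 2 were higher in members of the ketogenic library and 3 lower. Of all genes tested in members, 8.08% were higher and 7.33% lower. Jun had a ratio of 2.16 [1.55–3.09], and Hspa1a, counted in the same list, is given above. Atf3 had a ratio of 0.396 [0.271–0.578], Egr1 0.474 [0.342–0.657] and Fosl2 0.644 [0.567–0.733]. Of 15 interferon response genes 2 were lower, among them Ifi27l2a (0.411 [0.283–0.595]), and 1 higher, Rtp4 (1.78 [1.02–3.30]). Ccl4, a chemokine of activated NK cells, stood at 2580 and 1713 CPM, a ratio of 0.664 [0.633–0.696], and at −0.64 on the log2 scale in Ly49-negative cells. All 18 class I genes, among them the ligands of Ly49 receptors, stayed within 1.5-fold.

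Regulatory and signalling lists held few differences, where 8.08% of all genes tested in members were higher and 7.33% lower. Of 21 transcription factors Zeb2 alone passed 1.5-fold, and it was lower. Of 15 receptor adaptors 2 were higher, Ptpn6, the phosphatase SHP-1 that inhibitory Ly49 receptors recruit, with a ratio of 1.64 [1.22–2.24], and Lat2 with 1.60 [1.29–2.003]. The log2 ratio of Ptpn6 was 0.70 in members and 1.04 in Ly49-negative cells. Of 23 cytokine receptor and JAK-STAT genes 1 was higher, Il12rb2, a chain of the interleukin-12 receptor, with 1.73 [1.08–2.91]. Tgfbr2 and Jak3 were lower, the interval of Jak3 reaching 1.12. Of 8 retention genes Cxcr6 (1.58 [1.10–2.33]) and Cxcr3 were higher and Cd44 lower.

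Cell cycle transcripts were seldom detected. At least 2 UMIs of 7 cell cycle genes were found in 0 of 468 chow members, which allows a share of up to 0.641% (3 counts of the total), and in 3 of 765 ketogenic members (0.392%). These shares are of cells with such UMIs at this depth, not of cycling cells. Mcm2, a replication helicase subunit, was the 1 cell cycle gene of 8 past 1.5-fold, with 12 and 77 UMIs and a ratio of 2.81 [1.52–5.68]. Of all genes tested in members, 8.08% were higher by as much as 1.5-fold.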

How the data were processed

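Members and gene lists were chosen with earlier results of these data known. The deposited matrices hold UMI counts per gene and cell, not normalised by the authors (whole numbers, per the file headers). Cell Ranger, Seurat and mm10 are named in the submitters' processing notes, with no version. The authors' deposited table gives each cell's cluster, at a resolution of 0.5, and t-SNE coordinates (score values), which were not used. Symbols shared by several IDs were resolved with GENCODE M21, which holds 28339 of 28692 IDs (98.8%). UMIs were summed over cells and scaled to CPM. Log2 ratios add 0.5 to each count. A gene counts as higher or lower at 1.5-fold with at least 50 UMIs, and named genes need 100. The naming rule takes the 10 highest and 10 lowest ratios, without mitochondrial, immunoglobulin and T cell receptor genes, or, against Ly49-negative cells, the 3 rule genes. Some genes are not reported here. List examples are mostly the largest ratios; others add context. Thinned shares are exact hypergeometric expectations at 1000 UMIs. No doublet caller was run. UMIs of a cell are not independent samples of mice, so intervals cover counting error only. Python 3.11.15, numpy 2.4.6, scipy 1.17.1, pandas 2.3.3 and biopython 1.88 were used, and the ratio code was tested on simulated data.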

Additional observations from a re-analysis of the deposited data

Results flagged for a closer look

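Cells outside the deposited cluster table entered no comparison, yet some carried the receptors that define the members. A UMI of Klra4, Klra8 or Klra9 was found in 18.4% of the 87 such chow cells and 18.2% of the 55 such ketogenic cells, above the shares in most clusters. After thinning to 1000 UMIs the shares were 11.2% and 10.6%. No gene named here, and no list gene with at least 50 UMIs, had intervals that excluded a ratio of 1 in opposite directions between members and Ly49-negative cells or between the libraries.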

How the results depend on the processing

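The ratio of the share of members between diets was above 1 under every alternative run. With cluster 1 as the denominator its Poisson-based interval included 1 (1.11 [0.992–1.25]), while the odds ratio was 1.41 [1.14–1.73]. The ratio moved beyond its counting interval with a minimum of 2048 UMIs in both libraries (1.71) and with cluster 1 as the denominator (1.11), against 1.31. Counts of genes past 1.5-fold followed the minimum number of UMIs. At 20 and at 100 UMIs in place of 50, the diet counts in members were 930 and 236 higher and 913 and 194 lower. Against Ly49-negative cells they were 615 and 65 higher and 553 and 47 lower under chow, and 674 and 122 higher and 616 and 88 lower on the ketogenic diet. With cells weighted by their chance of keeping a Ly49 UMI at 1000 UMIs, those counts were 105 higher and 104 lower under chow and 148 and 149 on the ketogenic diet. In that setting a cell with a Ly49 UMI counted in part in both groups, which by construction draws the ratios between them towards 1. Whether this accounts for the whole change in the counts was not tested. With 10% free RNA subtracted, 37 of 6002 genes kept under 3 UMIs in 1 or both diets, a minimum chosen after seeing the data, and got no ratio, among them Hspa1a and 8 of the 10 lowest diet genes. Without cells with shared barcodes, the log2 ratios of Lyz2 and Apoe against Ly49-negative cells in the ketogenic library turned to 0.039 and 0.10. Of the 10 highest diet genes, 4 to 10 remained among the 10 highest across settings, fewest without cells with a Cd3e, Cd3d or Cd3g UMI, and of the 10 lowest 2 to 10, fewest with free RNA subtracted, where 8 had no ratio. The alternatives on shared barcodes, Cd3 cells and the cell with most Cd74 were chosen after seeing the data. Leaving out cells with 2 or more UMIs of other lineages was not run, since 6 chow and 8 ketogenic members would remain. No paired analysis was possible because each diet has 1 library. Depth limits the gene counts. Apart from the run at 20 UMIs, genes below 50 UMIs entered no count of genes past 1.5-fold and no list median, though levels or ratios of some are given singly.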
